A study of Mus musculus with 4 samples.

Results

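Blocks of the mouse genome in which KRAB zinc finger genes have multiplied recently were described in a methylated DNA immunoprecipitation sequencing (MeDIP-seq) experiment. The members are all rows of the deposited table of 100 bp windows that lie at chr2:175000001-177800000 or chr4:145200001-147900000 on the mm10 build, a choice by position that used no measured value. They number 4685 of 1048575 listed windows, with 1485 in the chromosome 2 cluster and 3200 in the chromosome 4 cluster. Reads in all 4 libraries and the CpG factor of each window were used.

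KRAB zinc finger proteins bind DNA through arrays of C2H2 fingers, and their KRAB domain recruits the corepressor TRIM28, which brings repressive chromatin and DNA methylation to many retrotransposons. The genes spread by tandem duplication, so neighbours can be nearly identical in sequence. In MeDIP-seq, an antibody against 5-methylcytosine captures methylated fragments of sonicated DNA. A region then gains reads over unselected DNA (input) with the number and the methylation of its CpG sites.

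The DNA came from natural killer T cells, lipid-recognising T cells, sorted from C57BL/6 mouse thymus by their binding of CD1 tetramer. Each of the 4 groups held 1 library: PLZFon MeDIP, WT MeDIP, PLZFon input and WT input. PLZF, the product of Zbtb16, is the transcription factor that directs the development of these cells. The nature of the PLZFon allele, the age of the mice and any pooling of animals are not given in the labels. Their antibody field names none for PLZFon MeDIP while it names anti-5-methylcytosine for WT input. DNA methylation windows hold no markers by which the sorted cell type could be checked.

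The libraries held about 10633633 reads (PLZFon MeDIP), 15141364 (WT MeDIP), 50374065 (PLZFon input) and 60683325 (WT input). There are no replicates, so each difference is one between 2 libraries and not between genotypes, and no p-value was computed. Ratios are of reads scaled by these totals, with exact (Clopper-Pearson) 95% intervals that cover counting error only, since PCR reads without molecular identifiers are not independent molecules. A read was counted in about 4 windows, so reads over a region are window sums divided by 4. Windows are listed from 10 reads in the 2 MeDIP libraries summed and 1 CpG upwards, so absence from the table does not mean absence of reads.

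The promoters show how alike the copies are, and 5 of them are printed for that reason, as 250 bases before to 50 after the annotated start (RefSeq, GRCm38.p6). Every CG is in capitals. Zfp966 (chr2:175931051-175931350, minus strand) and Zfp967 (chr2:176520754-176521053, plus strand), C2H2 zinc finger genes, had the same 300 bases, so the sequence is given once. Zfp600 (chr4:146156577-146156876, plus strand), Rex2 (chr4:147021600-147021899, plus strand) and Zfp979 (chr4:147642459-147642758, minus strand) are zinc finger genes of the chromosome 4 cluster. Gm13165 (chr4:146239954-146240253, minus strand), a long noncoding RNA gene, is shown as a CpG-rich promoter of the same cluster.
Zfp966: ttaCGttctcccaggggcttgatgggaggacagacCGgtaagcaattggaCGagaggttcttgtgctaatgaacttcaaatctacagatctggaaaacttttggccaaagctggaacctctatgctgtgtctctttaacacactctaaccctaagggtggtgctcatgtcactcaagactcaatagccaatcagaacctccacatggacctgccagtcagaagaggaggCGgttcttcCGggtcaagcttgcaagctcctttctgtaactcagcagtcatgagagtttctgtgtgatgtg
Zfp600: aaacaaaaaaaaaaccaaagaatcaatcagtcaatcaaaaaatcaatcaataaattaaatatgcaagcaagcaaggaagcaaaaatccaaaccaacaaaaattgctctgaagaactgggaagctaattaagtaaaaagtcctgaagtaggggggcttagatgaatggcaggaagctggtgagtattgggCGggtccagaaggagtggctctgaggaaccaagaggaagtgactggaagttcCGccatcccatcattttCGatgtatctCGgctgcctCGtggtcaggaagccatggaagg
Rex2: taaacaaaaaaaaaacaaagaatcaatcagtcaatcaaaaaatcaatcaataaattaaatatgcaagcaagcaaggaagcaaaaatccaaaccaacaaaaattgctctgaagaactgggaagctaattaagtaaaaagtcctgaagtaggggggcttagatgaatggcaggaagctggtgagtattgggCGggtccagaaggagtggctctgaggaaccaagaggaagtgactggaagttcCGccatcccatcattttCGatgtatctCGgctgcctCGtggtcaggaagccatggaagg
Zfp979: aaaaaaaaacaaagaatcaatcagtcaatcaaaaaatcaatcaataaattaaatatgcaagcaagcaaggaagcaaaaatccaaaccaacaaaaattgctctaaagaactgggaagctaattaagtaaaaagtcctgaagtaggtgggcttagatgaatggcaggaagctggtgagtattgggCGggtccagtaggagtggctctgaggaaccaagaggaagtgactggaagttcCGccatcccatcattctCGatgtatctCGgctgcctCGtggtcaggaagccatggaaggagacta
Gm13165: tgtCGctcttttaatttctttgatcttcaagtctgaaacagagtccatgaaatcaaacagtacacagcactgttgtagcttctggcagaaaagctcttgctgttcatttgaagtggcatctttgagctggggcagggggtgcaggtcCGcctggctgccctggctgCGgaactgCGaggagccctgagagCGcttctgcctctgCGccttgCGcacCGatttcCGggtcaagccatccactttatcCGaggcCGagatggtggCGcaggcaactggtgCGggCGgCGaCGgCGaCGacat
The promoters of Zfp600 and Rex2 matched in all 299 aligned bases and differed by 1 inserted base, an identity of 99.67%. Each of the first 4 sequences holds 5 CG, and that of Gm13165 holds 18.

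In the chromosome 2 cluster, 18 of 35 genes with a promoter sequence had another promoter of the cluster that matched it at 100% over at least 250 aligned bases, with inserted bases counted as differences, and 25 matched at 95% or more. In the chromosome 4 cluster 0 of 24 genes had a match at 100% and 8 at 95% or more. Among genes with a Zfp symbol, 5 of 6 on chromosome 2 and 0 of 12 on chromosome 4 had a match at 100%. Of all stretches of 100 bases in these promoters, 56.9% on chromosome 2 and 9.75% on chromosome 4 occurred again in another promoter. The share was 2.07% in the other 15167 promoters on the table's chromosomes, some of them past the table's end. The cluster promoters also held few CpG, with a median of 2 CG on chromosome 2 (43 promoters) and 4 on chromosome 4 (32). The median was 7 in the other 14969 within the table's range. At least 10 CG were found in 0 promoters on chromosome 2 and in 21.9% on chromosome 4, against 43.2% elsewhere.

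Promoter windows entered the table unevenly. Of windows with 1 to 4 CG within promoters, 2 of 40 were listed on chromosome 2 (5%) and 10 of 31 on chromosome 4 (32.3%), against 17.8% elsewhere. The window in the promoter of Zfp979 had 22 PLZFon and 31 WT MeDIP reads, beside 38 PLZFon and 42 WT input reads. Zfp600 had 14 PLZFon and 31 WT MeDIP reads in its promoter window, beside 25 PLZFon and 38 WT input reads. For Rex2 the counts were 9 PLZFon and 25 WT MeDIP reads, beside 31 PLZFon and 36 WT input reads. These windows are given because their promoters are printed above, and others differed: Zfp980 had 6 PLZFon and 6 WT MeDIP reads, and Zfp993 had 6 PLZFon and 5 WT MeDIP reads. The PLZFon MeDIP library is the smaller of the pair, so raw counts are not to be read as ratios. The Gm13165 window with 8 CG had 5 PLZFon and 8 WT MeDIP reads, beside 41 PLZFon and 51 WT input reads.

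The clusters differed from each other in how many windows were listed and in the input beneath them. Listed windows covered 5.304% of the positions of the chromosome 2 cluster and 11.85% of those of the chromosome 4 cluster, against 9.419% in the rest. A listed window of the chromosome 4 cluster held on average 23.99 PLZFon and 29.03 WT input reads, 2.438 and 2.483 times the level of the rest. In the chromosome 2 cluster the means were 9.255 PLZFon and 11.33 WT input reads, 0.9407 and 0.9695 times the rest. Windows with at least 60 reads over both inputs made up 33.78% of the chromosome 4 cluster (1081 windows) and 0.404% of the chromosome 2 cluster (6 windows), against 0.3907% of the rest. Both genotypes showed this to nearly the same degree.

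**Figure D1:**
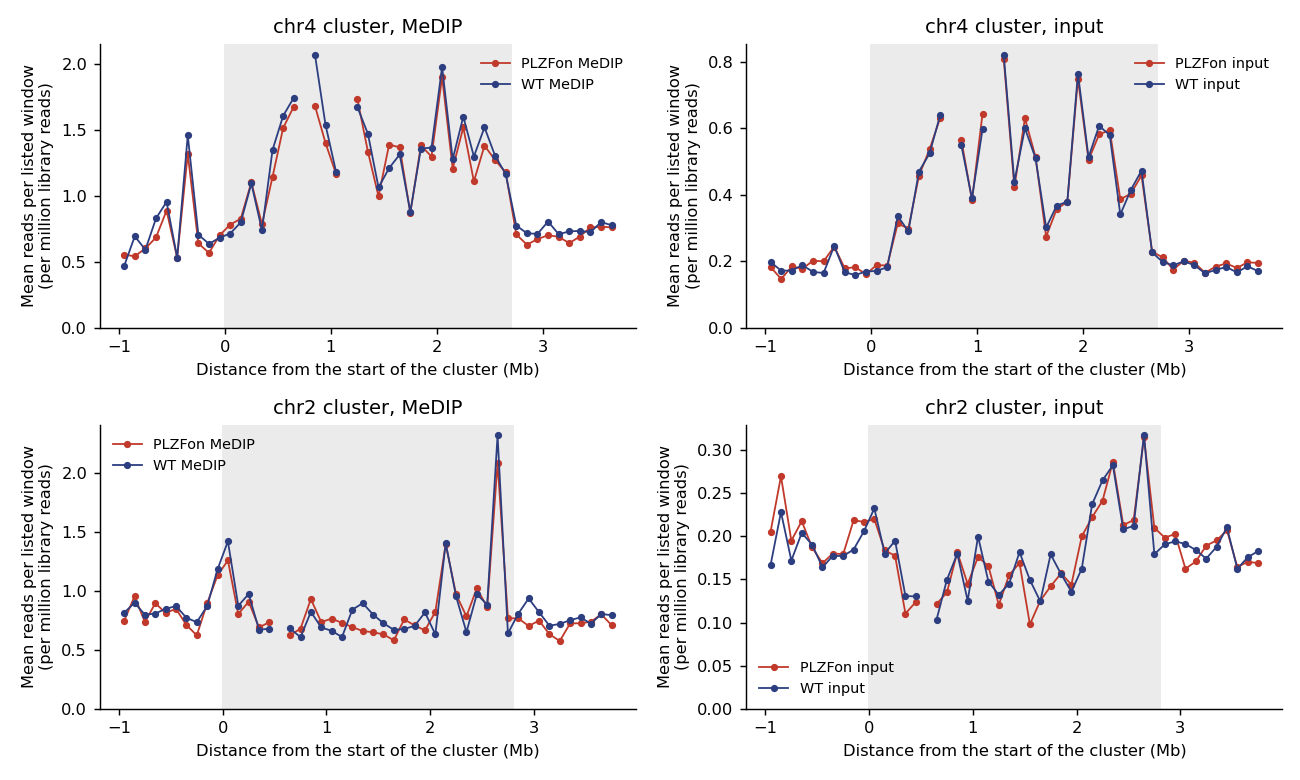
Mean reads per listed window and 100 kb bin, scaled to library size, for MeDIP (left) and input (right) along the chromosome 4 cluster (top) and the chromosome 2 cluster (bottom) with 1 Mb on each side. Grey marks the cluster, points are single libraries without error bars, and gaps are bins without listed windows. Input in both genotypes is raised over most of the chromosome 4 cluster and falls back at its ends.

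The rise in input began inside the chromosome 4 cluster. Its first 100 kb held 9.47 PLZFon and 10.3 WT input reads per listed window, and the bin 1.25 Mb from the start held 40.7 PLZFon and 49.7 WT input reads, the highest of the cluster. In the chromosome 2 cluster the bins ran from 4.933 to 15.85 PLZFon input reads and from 6.279 to 19.29 WT input reads. A single bin of the chromosome 2 cluster and 2 of the chromosome 4 cluster had no listed window at all. The part of copy number and of read placement in duplicated sequence in these levels was not tested.

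Scaled by library totals, listed windows held more MeDIP than input reads in both clusters and both genotypes. Windows were listed for their MeDIP reads, so values above 1 are in part set by that choice. The chromosome 2 cluster had 4.84-fold more depth-scaled reads in PLZFon MeDIP than in PLZFon input (95% interval 4.61 to 5.07), and 4.83-fold more in WT MeDIP than in WT input (4.64 to 5.04). In the chromosome 4 cluster the enrichment was 2.84-fold in PLZFon (2.78 to 2.91) and 2.95-fold in WT (2.89 to 3.01). The rest of the table stood between them, with 4.23-fold in PLZFon and 4.45-fold in WT. Scaling instead by the reads in listed windows, which are themselves chosen for MeDIP reads, sets enrichment against that of all listed windows together. On chromosome 4 it then fell below 1, with 0.6734 in PLZFon and 0.6652 in WT. That places the cluster below the listed windows as a whole and does not mean fewer MeDIP than input reads. On chromosome 2 that scaling gave 1.146 in PLZFon and 1.089 in WT.

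Enrichment climbed with CpG number up to 5 to 6 CpG in both clusters, and further on chromosome 2 but not on chromosome 4. In the chromosome 4 cluster it was 1.89-fold in PLZFon and 1.88-fold in WT at 1 CpG per window, and 5.52-fold in PLZFon and 5.99-fold in WT at 5 to 6 CpG. In the chromosome 2 cluster it was 3.86-fold in PLZFon and 3.76-fold in WT at 1 CpG, and 6.71-fold in PLZFon and 6.86-fold in WT at 5 to 6 CpG. The rest had 3.58-fold in PLZFon and 3.70-fold in WT at 1 CpG, and 5.81-fold in PLZFon and 6.35-fold in WT at 5 to 6 CpG. The chromosome 4 cluster thus had less enrichment than the rest in CpG-poor windows, and values near the rest at 5 to 6 CpG. From 7 CpG on it lay below the rest again. At 7 to 9 CpG it had 5.29-fold in PLZFon (4.67 to 6.00) and 5.60-fold in WT (5.03 to 6.24), against 6.79-fold in PLZFon and 7.46-fold in WT in the rest. At 10 or more CpG it had 3.998-fold in PLZFon (3.31 to 4.82) and 2.60-fold in WT (2.16 to 3.11), against 6.44-fold in PLZFon and 6.92-fold in WT in the rest. That last class holds 38 windows on chromosome 4, and the chromosome 2 cluster has 5. The chromosome 2 cluster had 8.26-fold in PLZFon and 7.62-fold in WT at 7 to 9 CpG. Its 5 windows with 10 or more CpG had 18.3-fold in PLZFon (9.74 to 37) and 12.9-fold in WT (8.11 to 21.3).

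**Figure D2:**
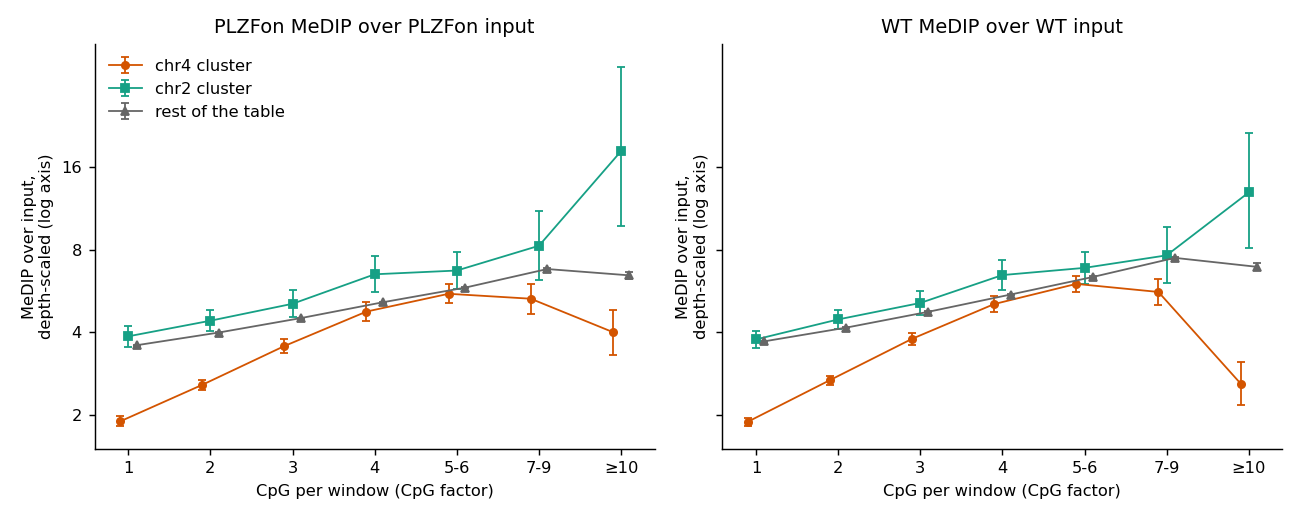
MeDIP over input of the same genotype (log axis, depth-scaled) by the number of CpG per window, for PLZFon (left) and WT (right). Points are the chromosome 4 cluster, the chromosome 2 cluster and the rest of the table, with exact 95% intervals for counting error. The chromosome 4 cluster starts below the rest, reaches it at 5 to 6 CpG and lies below it again from 7 CpG on.

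The lower enrichment of the chromosome 4 cluster moved with its input. Among windows with 20 to 29 reads over both inputs, enrichment in that cluster was 4.87-fold in PLZFon and 4.95-fold in WT, above the rest at 3.82-fold in PLZFon and 4.04-fold in WT. Windows of the chromosome 2 cluster in the same class had 4.10-fold in PLZFon and 4.09-fold in WT. At 80 or more input reads the chromosome 4 cluster had 1.88-fold in PLZFon and 1.93-fold in WT, against 2.26-fold in PLZFon and 2.10-fold in WT in the rest. Because windows were listed only with enough MeDIP reads, a window with little input had to be enriched to appear, and the classes with fewer than 20 input reads are affected most.

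**Figure D3:**
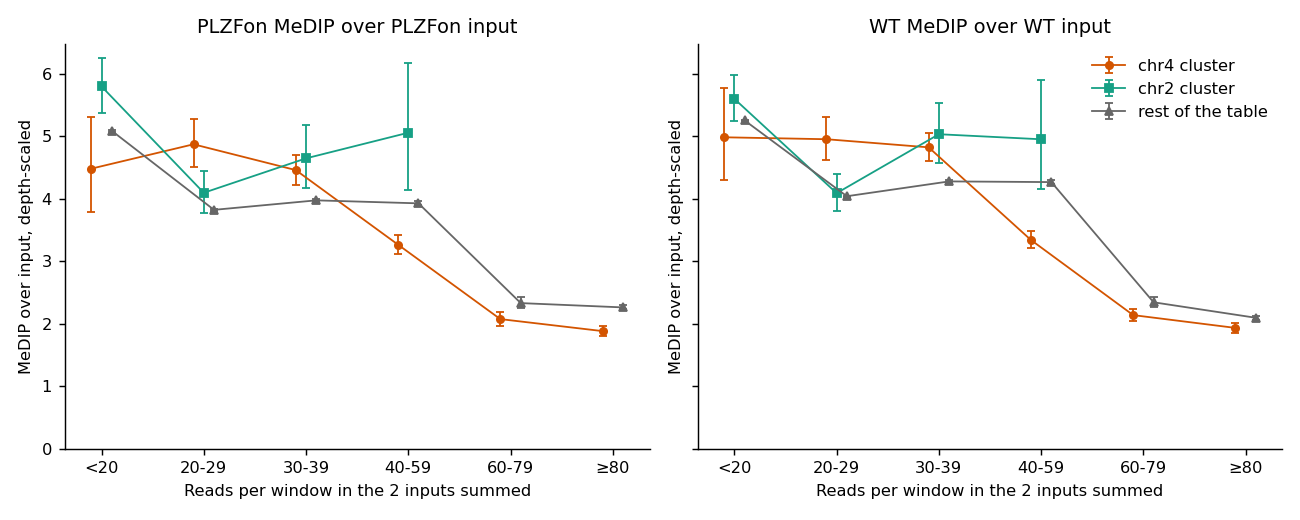
MeDIP over input (depth-scaled) by the number of reads per window over both inputs, for PLZFon (left) and WT (right), in the chromosome 4 cluster, the chromosome 2 cluster and the rest. Classes with fewer than 20 windows are left out and bars are exact 95% intervals for counting error. Enrichment in the chromosome 4 cluster is above the rest at 20 to 29 reads and below it from 40 reads on.

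Neither cluster stood apart between the genotypes. The chromosome 2 cluster had 3508 PLZFon and 5072 WT MeDIP reads, a PLZFon over WT ratio of 0.985 (0.943 to 1.03) that was 1.02 with TMM factors, and its input ratio was 0.984. The chromosome 4 cluster had 11514 PLZFon and 17105 WT MeDIP reads, a ratio of 0.9585 (0.936 to 0.982), and its input ratio was 0.9955. The rest had a MeDIP ratio of 0.964, so both clusters lay close to the background, and the interval of the chromosome 4 cluster included equality with TMM factors (0.9935, 0.9702 to 1.017).

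Along the clusters the ratio stayed near 1. Of 25 bins with at least 100 MeDIP reads on chromosome 2, 13 had a ratio above 1 and 12 below, over a range of 0.812 to 1.30. Its highest bin, 2.05 Mb from the start, had 122 PLZFon and 134 WT MeDIP reads, a ratio of 1.30 (1.01 to 1.68), beside an input ratio of 1.23 (0.966 to 1.57). On chromosome 4, 9 of 25 bins had a ratio above 1 and 16 below, over a range of 0.8125 to 1.15. The lowest, 0.85 Mb from the start, had 380 PLZFon and 666 WT MeDIP reads and an interval of 0.714 to 0.923, with an input ratio of 1.03.

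Single windows were held to a rule of size: 20 or more reads in the MeDIP libraries together, a change of 2-fold or more up or down, and an interval that excludes 1. Of all listed windows with enough reads, 1.13% passed as higher in PLZFon and 2.17% as lower. In the chromosome 2 cluster 5 of 644 windows passed as higher (0.776%) and 5 as lower (0.776%), both below those shares. In the chromosome 4 cluster 31 of 2002 passed as higher (1.55%) and 23 as lower (1.15%). Together 36 windows passed as higher and 28 as lower, and with TMM factors 53 and 18. Neighbouring windows share reads, and the differences between these shares and those of the whole table were not tested. The same rule on the inputs was passed by 1.92% of all windows as higher and 1.43% as lower. It was passed by 13 and 4 of 698 windows on chromosome 2 and by 29 and 23 of 3037 on chromosome 4, higher and lower in that order. Of the 31 windows higher in MeDIP on chromosome 4, 13 lay in 3 short CpG-dense stretches described next, and none of the 23 lower windows did. Outside those stretches 18 of 1979 windows passed as higher (0.91%), below the share of the whole table.

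The lowest ratios lay at several places, and some lower windows adjoined. A window in Vmn2r-ps17, a vomeronasal receptor pseudogene, at chr4:146132601-146132700 had 2 PLZFon and 21 WT MeDIP reads (ratio 0.136, 0.0154 to 0.555), beside 17 PLZFon and 18 WT input reads. The windows just before it also passed as lower. At chr4:146132401-146132500 there were 19 PLZFon and 55 WT MeDIP reads, and at chr4:146132501-146132600 there were 12 PLZFon and 35 WT MeDIP reads. Lower windows also adjoined at chr4:145633801-145633900 and chr4:145633901-145634000. A window in Zfp992 at chr4:146457401-146457500 had 3 PLZFon and 18 WT MeDIP reads, beside 46 PLZFon and 50 WT input reads. On chromosome 2 the lowest, at chr2:176433701-176433800 outside any gene, had 3 PLZFon and 17 WT MeDIP reads (0.251, 0.0472 to 0.869). A set of 3 windows shared the highest ratio of that cluster, 3.32 (1.20 to 10.6), each with 14 PLZFon and 6 WT MeDIP reads, and 1 of them lies in Gm2004. None of these lowest and highest ratios rests on more than 21 MeDIP reads in a library.

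Runs of CpG-dense windows, at least 5 adjoining listed windows with at least 5 CpG each, were found only on chromosome 4. The chromosome 2 cluster had 0 and the chromosome 4 cluster had 8, or 2.963 per Mb, against 536 in the rest, or 0.4836 per Mb. Per 1000 listed windows the chromosome 4 cluster had 2.5 and the rest 0.5135. Of the 8 runs, 4 lay in loci with a Zfp symbol, 2 in other genes only and 2 outside genes. Apart from the run in Zfp933, those 4 all lay in the long annotated span of Zfp978. That span holds other genes, and runs there overlap the pseudogenes Gm13146 and Gm13135. The share of all listed windows within such spans was not computed. With at least 3 adjoining windows the chromosome 2 cluster had 7 runs and the chromosome 4 cluster 27, so the count depends on the length asked for. It also moved with input: without windows of at least 60 input reads, the chromosome 4 cluster had 3 runs. Of the 536 runs elsewhere, 17 averaged at least 60 input reads per window over both libraries. Only listed windows can form a run, and the part of raised input in the density was not tested.

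Of the 8 runs, 3 had a mean of 10 or more CpG per window, and these 3 were higher in PLZFon. They were set apart by CpG number, but after their ratios were known. The run at chr4:145836601-145837500, which reaches into the transcribed pseudogene Gm13238, held 63.5 PLZFon and 37.75 WT MeDIP reads, a ratio of 2.395 (1.576 to 3.684), beside an input ratio of 0.877. The run at chr4:146474701-146475600, in the pseudogene Gm13241 and within the annotated span of Vmn2r-ps16, held 75 PLZFon and 37.75 WT MeDIP reads, a ratio of 2.829 (1.889 to 4.301), beside an input ratio of 1.06. The run at chr4:147187301-147188000, at the pseudogene Gm13146 inside the span of Zfp978, held 40.75 PLZFon and 26.75 WT MeDIP reads, a ratio of 2.169 (1.3 to 3.675), beside an input ratio of 1.04. All 3 intervals lie above 1. Of all 544 runs in the table, 6.43% had such an interval.

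Enrichment over input in these runs was 3.352-fold, 3.653-fold and 2.959-fold in PLZFon, in the order above, and 1.228-fold, 1.366-fold and 1.425-fold in WT. All 3 WT values were below the 2.952-fold of the chromosome 4 cluster in WT. Over the 3 runs, 25 windows held 179 PLZFon and 102 WT MeDIP reads, a ratio of 2.50 (1.95 to 3.21), while the input ratio was 0.983 (0.829 to 1.16). Input reached 60 reads over both libraries in each of these 25 windows.

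The window counts show where in the runs the libraries part. In the run at Gm13238 the window at chr4:145837101-145837200, with 16 CpG, had 36 PLZFon and 9 WT MeDIP reads, beside 43 PLZFon and 52 WT input reads. In the run at Gm13241 the window at chr4:146475201-146475300, with 15 CpG, had 43 PLZFon and 5 WT MeDIP reads, beside 43 PLZFon and 42 WT input reads. In the run at Gm13146 the window at chr4:147187601-147187700, with 12 CpG, had 35 PLZFon and 14 WT MeDIP reads, beside 35 PLZFon and 41 WT input reads. These windows had the highest ratio of their run, and there the inputs were alike while WT MeDIP was low. Other CpG-dense windows differed less. In the run at Gm13146 a window with 14 CpG had 22 PLZFon and 10 WT MeDIP reads. Its first window, with 10 CpG, had 6 PLZFon and 10 WT MeDIP reads, a ratio of 0.854 (0.255 to 2.60). Towards the far end of each run WT MeDIP came closer: the last window of the run at Gm13241 had 51 PLZFon and 49 WT MeDIP reads, a ratio of 1.48 (0.981 to 2.24).

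Input parted as well at the far end of the run at Gm13238 and beyond it, and past the end of the run at Gm13241. The last window of the run at Gm13238 had 42 PLZFon and 78 WT input reads, a ratio of 0.649 (0.435 to 0.956). The listed window 1050 bp from its start, past its end, had 43 PLZFon and 88 WT input reads, a ratio of 0.589 (0.399 to 0.857), and the one at 1150 bp had 45 PLZFon and 90 WT input reads. The window 1050 bp from the start of the run at Gm13241 had 53 PLZFon and 96 WT input reads, a ratio of 0.665 (0.466 to 0.940). Past the run at Gm13146 the window at 1050 bp had 47 PLZFon and 82 WT input reads. Its input ratio was 0.6905, with an interval from 0.4718 that reaches 1. The part of this input difference, and of reads placed among similar copies, in the ratios of the runs was not tested. In the window of highest MeDIP ratio in the run at Gm13238 the input ratio was 0.996 (0.649 to 1.52).

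**Figure D4:**
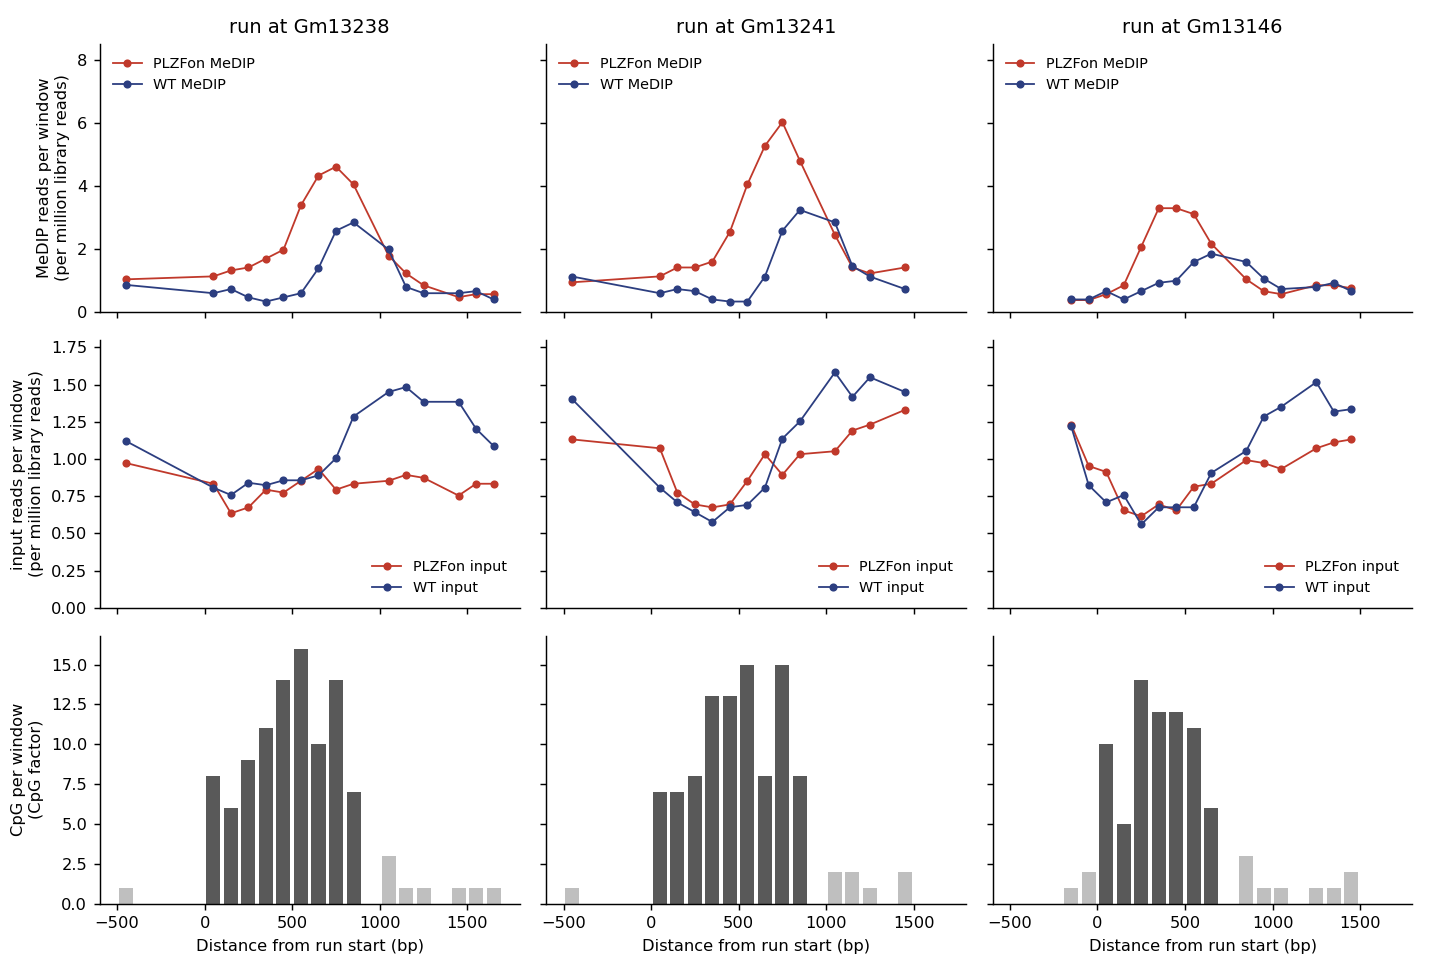
MeDIP reads (top) and input reads (middle) per window, scaled to library size, and CpG per window (bottom) against distance from the start of each of the 3 CpG-densest runs of the chromosome 4 cluster. Points are single windows of 1 library each without error bars, and dark bars are windows of the run. PLZFon MeDIP rises over the CpG-dense windows in all 3, and WT MeDIP stays low over much of each run and peaks nearer the far end.

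The other 5 runs did not share this. They had ratios of 0.811 to 0.949, each with an interval that includes 1. The run at chr4:147839101-147839600 in Zfp933, a zinc finger gene near the end of the cluster, held 46.25 PLZFon and 70 WT MeDIP reads (0.941, 0.634 to 1.38) and was enriched 13.3-fold in PLZFon and 10.7-fold in WT. A run outside genes at chr4:145888601-145889100 held 56 PLZFon and 90 WT MeDIP reads (0.886, 0.623 to 1.25) and was enriched 11.5-fold in PLZFon and 20.04-fold in WT. The run at chr4:147268701-147269200 in Zfp978 held 85.75 PLZFon and 139.5 WT MeDIP reads (0.875, 0.661 to 1.15).

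CpG number alone did not separate the windows that differed. In the chromosome 4 cluster, windows with 10 or more CpG had a ratio of 2.995 (2.159 to 4.197) at 60 or more input reads (17 windows). With less input their ratio was 0.9202 (0.7004 to 1.204, 21 windows). Inside the 3 runs it was 3.08 (2.20 to 4.36, 14 windows), and outside them 0.940 (0.719 to 1.22, 24 windows). The runs were set apart after their ratios were known, so the split by runs was in part fixed by that choice. All 14 windows of the runs are among the 17, so the 2 splits are not independent. Elsewhere in the table, 82 windows with as many CpG and at least 60 input reads had a ratio of 2.34 (2.08 to 2.65) with an input ratio of 1.33, and 66 of those 82 lie on chromosome 6. Those 66 had a ratio of 2.81 (2.44 to 3.24), and the 16 on other chromosomes 1.34 (1.04 to 1.72) with an input ratio of 1.17. The 1673 windows elsewhere with as many CpG and less input had a ratio of 0.955 (0.929 to 0.982). Of the 536 runs elsewhere, 31 had a ratio at least as high as the lowest of the 3 and 25 at least as high as the highest, so such values are not particular to this cluster.

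In the authors' deposited table, 0.0144% of all listed windows had an adjusted p under 0.05. In the chromosome 4 cluster 5 windows did, all higher in PLZFon and all in 2 of the 3 runs, and in the chromosome 2 cluster 0 did. The window at chr4:146475201-146475300 had a log2 fold change of 3.63 and an adjusted p of 6.27e-07 in the authors' deposited table, an edgeR comparison of 1 library with 1 library. At an adjusted p under 0.01, met by 0.0083% of all windows in the authors' deposited table, 4 windows of the clusters were left. At an adjusted p under 0.1, met by 0.0172%, the authors' deposited table holds 7 windows of the clusters, all in these runs.

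Zinc finger loci, taken as genes with a Zfp symbol and 1000 bp on each side, numbered 23, with 7 in the chromosome 2 cluster and 16 in the chromosome 4 cluster. At least 20 MeDIP reads were reached by 20 of them, 7 on chromosome 2 and 13 on chromosome 4, while Zfp990, Zfp987 and Zfp534 were not measured. Among all 14284 loci with enough reads, 0.182% passed the rule of size as higher and 0.448% as lower, 1.21% had an interval above 1 and 3.68% below. Rex2 and genes with a Gm symbol were counted as other genes, so what follows covers Zfp symbols only. None of the 20 loci with a Zfp symbol passed the rule in either direction and none had an interval that excludes 1. Their median log2 ratio was -0.04, against -0.06 over all loci, and 163 Zfp loci elsewhere had a median of -0.03.

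**Figure D5:**
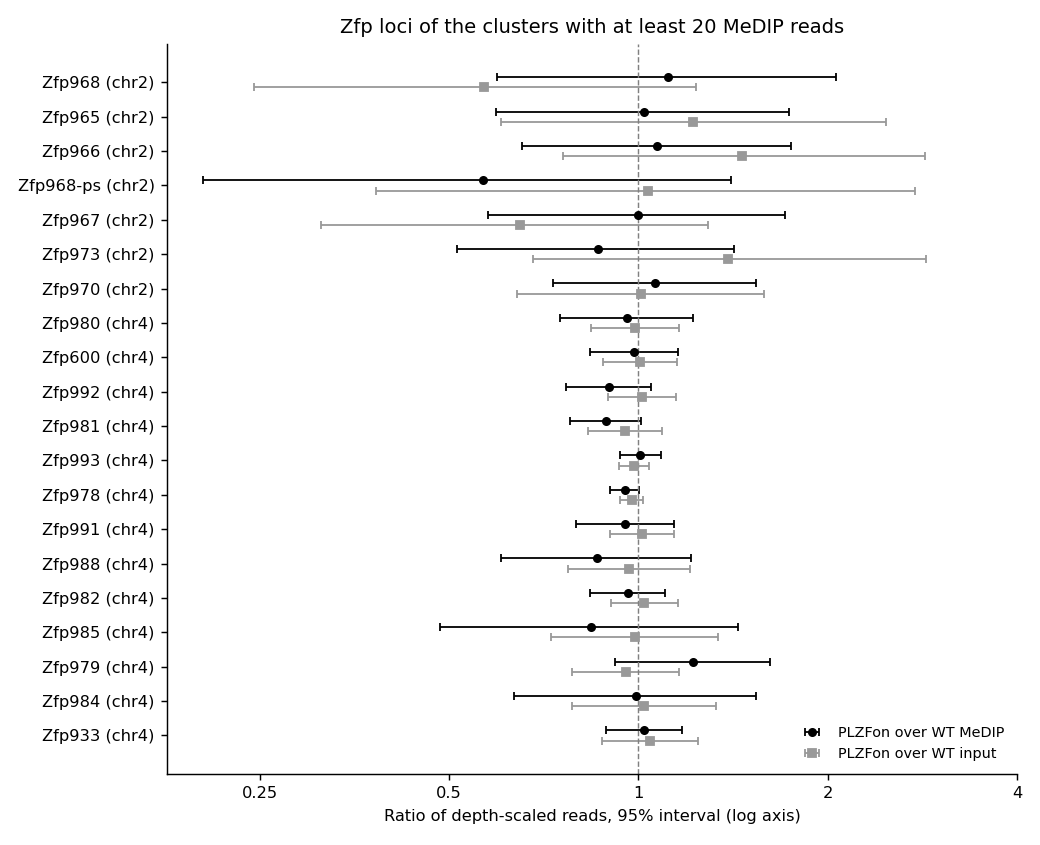
PLZFon over WT ratio of depth-scaled reads (log axis) in MeDIP (black) and input (grey) at the 20 zinc finger loci with at least 20 MeDIP reads, with exact 95% intervals for counting error. Loci run down the page in chromosome order. Every interval spans 1.

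The highest ratio was at Zfp979, with 94.25 PLZFon and 110 WT MeDIP reads (1.22, 0.917 to 1.62). Zfp968 had 20.75 PLZFon and 26.5 WT MeDIP reads (1.11, 0.596 to 2.06), and Zfp966 and Zfp970 had ratios of 1.07 and 1.06. The lowest was Zfp968-ps, a pseudogene, with 7.25 PLZFon and 18.25 WT MeDIP reads (0.566, 0.203 to 1.40). Zfp985, Zfp988 and Zfp973 followed with 0.842, 0.859 and 0.862.

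The most reads were held by 4 long loci. Zfp978 had 2242.5 PLZFon and 3359 WT MeDIP reads, a ratio of 0.951 (0.901 to 1.003), and Zfp993 had 1196.8 PLZFon and 1694.5 WT MeDIP reads, a ratio of 1.01 (0.933 to 1.08). Zfp981 had a ratio of 0.888 (0.779 to 1.01) and Zfp982 of 0.961 (0.838 to 1.10). The annotated spans of Zfp978 and Zfp993 hold other genes, so their reads are not those of single zinc finger genes. Zfp991 and Zfp988 lie within the span of Zfp978, and Zfp981 overlaps that of Zfp993. Some reads therefore count in more than a single zinc finger locus, and the loci counted above are not all separate. Zfp981 and Zfp982 overlap genes without a Zfp symbol as well.

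Enrichment over input varied widely among the zinc finger loci. Zinc finger loci on chromosome 2 had a median enrichment of 6.66-fold in PLZFon and 6.80-fold in WT, with 6.167 PLZFon and 8 WT input reads per listed window. Those on chromosome 4 had 2.49-fold in PLZFon and 2.44-fold in WT, with 22.93 PLZFon and 28.27 WT input reads. Zfp loci elsewhere had 4.10-fold in PLZFon and 4.11-fold in WT, with 9.323 PLZFon and 11.25 WT input reads. Windows with little input had to be enriched to be listed, so these medians are in part set by input. Zfp973 was enriched 6.79-fold in PLZFon and 10.9-fold in WT (6.10 to 20.5), Zfp966 6.51-fold in PLZFon and 8.87-fold in WT, and Zfp965 6.66-fold in PLZFon and 7.96-fold in WT. On chromosome 4 Zfp933 stood highest, with 6.83-fold in PLZFon and 6.99-fold in WT, and it also had low input, 13.34 PLZFon and 15.38 WT reads per window. The lowest were Zfp985 (1.39-fold in PLZFon and 1.63-fold in WT), Zfp984 (1.63-fold in PLZFon and 1.68-fold in WT), Zfp979 (2.40-fold in PLZFon and 1.88-fold in WT) and Zfp991 (1.88-fold in PLZFon and 2.004-fold in WT).

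Of the other 129 genes in the clusters 112 were measured, 1 passed the rule as higher and 0 as lower. That gene, Gm2004 on chromosome 2, had 20.5 PLZFon and 13 WT MeDIP reads, a ratio of 2.25 (1.07 to 4.90), beside an input ratio of 1.03. Its promoter matched that of Zfp966 at 98.92% over 278 aligned bases. Gm13238 and Gm13241, which hold 2 of the CpG-dense runs, had intervals above 1, with ratios of 1.957 (1.37 to 2.81) and 1.83 (1.36 to 2.47). The input ratio was 0.755 (0.613 to 0.928) at Gm13238, below 1, and 0.9235 (0.785 to 1.085) at Gm13241. The pseudogene Gm13234 had 38 PLZFon and 90.5 WT MeDIP reads (0.598, 0.398 to 0.882), the only interval below 1, beside an input ratio of 1.38. Gm13149, the lowest ratio, had 11 PLZFon and 28.5 WT MeDIP reads (0.550, 0.247 to 1.14). The vomeronasal pseudogenes Vmn2r-ps17 and Vmn2r-ps16, whose annotated spans overlap genes with a Zfp symbol, had ratios of 0.919 and 0.960.

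Genes at the ends of the chromosome 4 cluster lay in DNA with ordinary input. Tnfrsf1b, a receptor for tumour necrosis factor, had 53.5 PLZFon and 86 WT MeDIP reads (0.886, 0.618 to 1.26), with 9.333 PLZFon and 9.889 WT input reads per window. Tnfrsf8, which encodes CD30, had 86.5 PLZFon and 102.8 WT MeDIP reads (1.20, 0.890 to 1.61). Miip had a ratio of 0.802 (0.330 to 1.84) and Mfn2, which encodes mitofusin, of 0.9015 (0.699 to 1.16). Fv1, which restricts murine leukaemia viruses, was not measured, with 3.75 PLZFon and 8 WT MeDIP reads.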

How the data were processed

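Raw read counts per 100 bp window were deposited for 4 libraries, from sorted and unique-filtered alignments per the file headers. BWA, edgeR and the mm10 build are named in the submitters' processing notes without versions. DNA was sonicated to a median of 180 to 230 bp, per the labels' protocols. The authors also deposited RPKM values, which are constant multiples of the counts and from which library totals were recovered. The CpG factor is a deposited score; it equalled the number of CG in all 2531 promoter windows compared. The authors' log2 fold changes and p-values come from edgeR, per the file headers. No column of another sample was used. With its header the table has 1048576 lines and ends within chromosome 7; regions beyond it were not analysed here.

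Ratios, intervals and counts were computed with Python 3.11.15 and scipy 1.17.1, and TMM factors with edgeR 4.0.16. Input counts of neighbouring windows grew less alike up to a distance of 4 windows and little beyond it, so a read was taken to count in 4 windows. Gene descriptions and proteins were not used, so a zinc finger locus is a Zfp symbol and Gm-named zinc finger genes count as others. Named zinc finger loci were the 4 highest and 4 lowest in ratio, the 4 highest and 4 lowest in WT enrichment and the 4 with the most reads. Named other loci were the 2 with the most reads, the highest and lowest ratio and 5 genes at the cluster ends. Named windows and bins were the extremes of each cluster. Runs, windows within the runs, promoters, Gm13234, Gm13238 and Gm13241 beyond that rule were chosen after their values were seen. The clusters and lists were chosen with earlier results of these data known. Alternatives were TMM factors, scaling within CpG classes or by listed windows, other read, fold and run minimums, and removal of windows with raised input.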

Additional observations from a re-analysis of the deposited data

How the results depend on the processing

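No paired analysis was possible because each group holds 1 library, and for the same reason no library was left out. Of 97 alternatives for the results that answer a comparison, 51 stayed within the limits set, 44 moved and 2 reversed. The cause of these moves was not tested. Some could not move, among them the rise with CpG number scaled by listed windows. The 2 counted as reversed are the enrichment of the chromosome 4 cluster scaled by listed windows. Values under 1 there are relative to all listed windows and not to input alone. For named loci, all 112 alternatives that kept enough reads stayed within their intervals. Much of this was fixed in advance. Other read minimums leave a ratio unchanged, and TMM factors scale every ratio alike. Loci under the read minimum of a setting were not compared there. Among them were Zfp979 without raised input and Gm2004 with at least 40 reads.

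Enrichment over input depended on the windows and the scaling used. With at least 20 MeDIP reads it was 6.652 in PLZFon and 6.801 in WT on chromosome 2, and 3.703 and 3.895 on chromosome 4. Scaled by listed windows, and so set against all listed windows together, it was 1.146 in PLZFon and 1.089 in WT on chromosome 2. On chromosome 4 it was 0.6734 in PLZFon and 0.6652 in WT, below 1. With 20 to 29 input reads, chosen after seeing the data, it was 4.096 in PLZFon and 4.09 in WT on chromosome 2, and 4.872 and 4.953 on chromosome 4. Without windows of at least 60 input reads it was 3.911 in PLZFon and 4.088 in WT on chromosome 4.

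The rise in enrichment from 1 to 5 or 6 CpG, 2.923 in PLZFon and 3.186 in WT on chromosome 4, was 2.407 and 2.514 with at least 20 MeDIP reads, 2.307 and 2.594 without raised input, and 1.975 and 2.21 with 20 to 29 input reads. On chromosome 2 it was 1.824 in WT, and 1.462 with at least 20 MeDIP reads. The PLZFon over WT ratio of the chromosome 4 cluster was 0.9935 with TMM factors and 0.9963 scaled within CpG classes.

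The 36 higher windows of both clusters became 78 with at least 10 reads, 12 with at least 40, 20 at a ratio of at least 3, 16 without raised input and, chosen after seeing the data, 23 without the 3 CpG-densest runs. The 28 lower windows became 18 with TMM factors, 12 with at least 40 reads, 55 at a ratio of at least 1.5 and 7 at 3; TMM factors gave 53 higher windows. Runs on chromosome 2 became 4 at a CpG factor of at least 4, 7 with at least 3 windows and 4 with 1 missing window allowed. Runs on chromosome 4 became 18 at a factor of at least 4, 2 at 7, 27 with at least 3 windows, 2 with at least 8, and 3 without raised input. By medians, input relative to the rest was 1 in PLZFon and 1 in WT on chromosome 2, and 2.222 and 2.273 on chromosome 4; with at least 20 MeDIP reads it was 2.276 and 2.33 on chromosome 4.

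Depth limits single windows and loci with few reads, among them Zfp968-ps on chromosome 2 and Zfp985 on chromosome 4.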
